A study of Mus musculus with 10 samples.

Results

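Autophagy and mitophagy genes were followed in the gastrocnemius, a mixed but mostly fast calf muscle, of mice fed a diet with or without added L-carnitine. The list holds 40 genes of the pathway, taken by name and not by their values, though earlier results of these data were known. Of these genes 38 were measured, among 22180 genes in all. Bnip3l shares its probe set with another gene and Optn is not listed in the annotation table used here, so neither was analysed here. Total RNA of 10 male NMRI mice, an outbred stock, was hybridised to Affymetrix Mouse Gene 2.0 ST arrays, 1 array per mouse. The control group (5 arrays) ate a natural-ingredient diet low in carnitine (under 5 mg per kg of feed). The carnitine group (5 arrays) ate the same feed after 1000 mg L-carnitine had been mixed into each kg. The mice came from a feeding study of 60 animals, 30 on each diet and kept 5 to a cage, that began at 3 weeks of age. Tissue was taken from 10 animals of each diet at ages of 9, 15 or 18 months. The labels give neither the age nor the cage of the array mice, so differences in age or cage cannot be told apart from those between mice or diets. By its title the study asked what lifelong carnitine does to the muscle transcriptome late in life.

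Autophagy encloses cytoplasm in a double-walled vesicle, the autophagosome, and delivers it to the lysosome for breakdown. A kinase complex around ULK1 starts the process, a lipid kinase complex around Beclin 1 marks the membrane, a conjugation machinery attaches proteins of the ATG8 family to it, and receptors that bind ATG8 proteins bring in cargo. Mitophagy is the form that removes mitochondria. In muscle, autophagy is known for its part in fasting, exercise and ageing, and both too much and too little of it go with loss of muscle mass.

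Markers of the labelled tissue were high: the 10 markers of skeletal muscle averaged between 12.96 and 13.12 on the log2 scale on all 10 arrays. Values are RMA log2 values, and every difference below is the carnitine mean less the control mean on that scale, so that a positive one is higher in carnitine. Control replicate 5 stood apart from the other 9 arrays. Its interquartile range over all probe sets was 2.20, against 2.39 to 2.59 on the others, and its mean correlation with the other arrays was 0.976, against 0.986 to 0.989. The list's counts and medians are therefore given with and without it, as is the difference of each member that it moved by more than 1.5 times or turned in sign. Slow-fibre genes varied widely between the mice, with a mean over 15 such genes of 8.73 to 9.44 in control and 7.13 to 9.24 in carnitine muscle, and their part in the results below was not tested beyond the fit with this mean as a covariate. In such bulk tissue, fewer cells of a type and less RNA per cell cannot be told apart.

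No autophagy or mitophagy gene passed the test across all genes, while the mean of nearly all of them was slightly higher in carnitine muscle on the deposited values, and of 23 of 38 after cyclic loess. By limma, 0 of 38 passed an adjusted p of 0.05, where 0 of all 22180 genes (0%) did, and the smallest adjusted p was 0.712. Without adjustment 1 gene, Gabarapl2, had a p below 0.05, on the higher side, against 6.97% of all genes in either direction and 3.14% on the higher side. Among the 8872 brightest genes, where all 38 lie, these shares were 7.12% and 6.24%. A positive difference was found in 36 of the 38, or 94.7%, against 47.7% of all genes. The median difference was 0.11 over the 38 genes, with a range from -0.07 to 0.30, and -0.01 over all genes. Of the 38 confidence intervals (95%), 37 included 0, and they reached from -0.27 to 0.61.

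**Figure D1:**
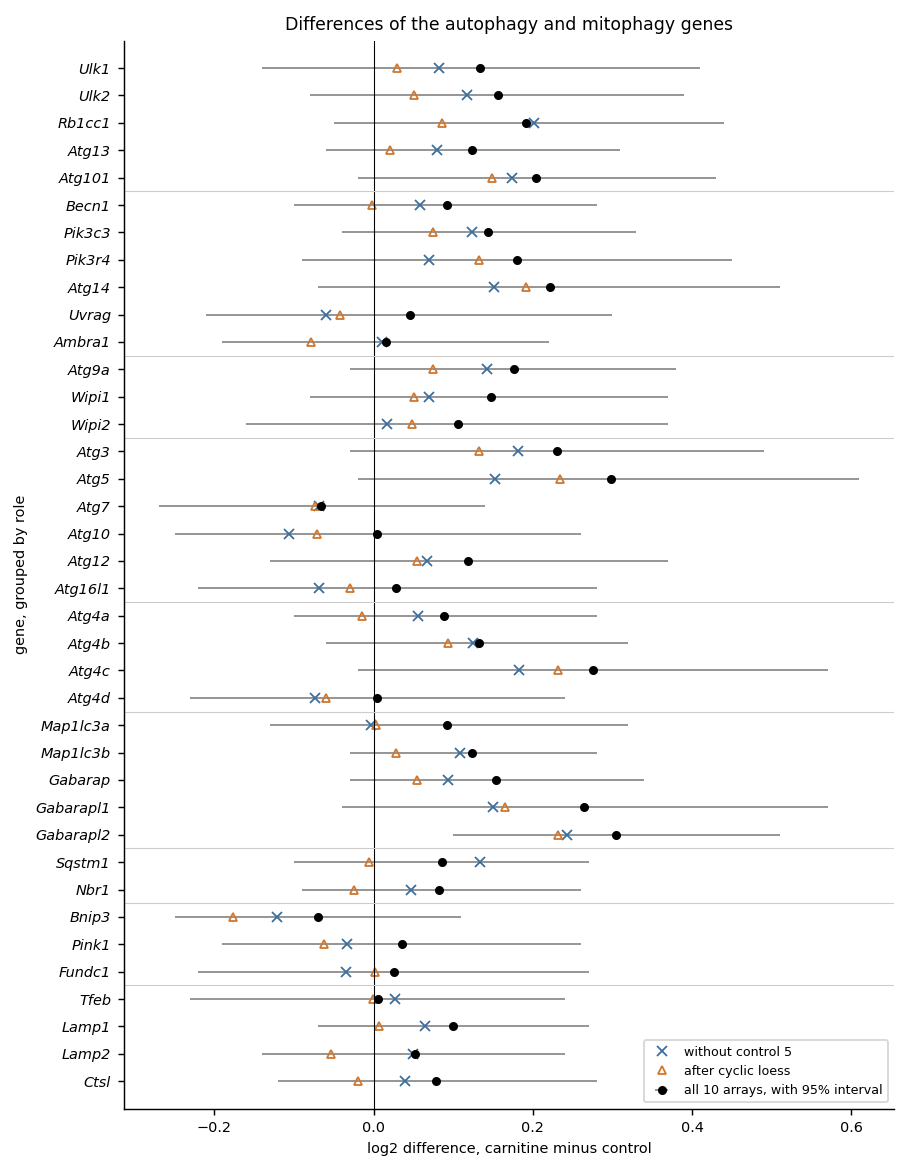
Log2 difference, carnitine minus control, of the 38 measured autophagy and mitophagy genes, ordered by role. Black points with grey bars are the estimates over 10 arrays with their 95% confidence intervals, crosses leave out control replicate 5, and triangles follow cyclic loess. The interval of Gabarapl2 (0.10 to 0.51) is the one that does not include 0.

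The differences of all genes varied with the level of signal. The 38 genes had means from 6.70 to 11.49, and of the 8872 brightest genes 74.2% had a positive difference, with a median of 0.07. Of the 2218 dimmest genes 26.0% were positive and the median was -0.07. Without control replicate 5 the median was 0.07 over the 38 genes, of which 29 were positive, and 0.035 over the bright genes, of which 63.5% were positive. After cyclic loess, which evens out differences between arrays that depend on signal, 23 of the 38 were positive with a median of 0.025, against 52.0% and 0.005 in the bright genes. These ranges of signal were chosen after the data had been seen.

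**Figure D2:**
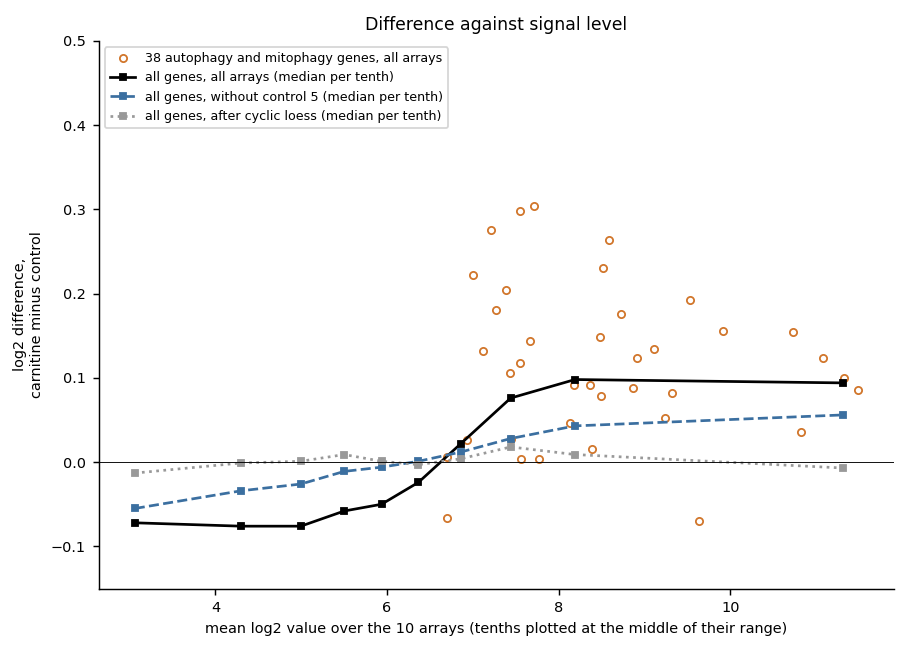
Log2 difference, carnitine minus control, against the mean log2 value over 10 arrays. Open circles are the 38 autophagy and mitophagy genes, and squares joined by lines are medians over 10 bins of 2218 genes each, ordered by level, for all arrays (black), without control replicate 5 (blue) and after cyclic loess (grey). The black line runs from -0.07 in the dimmest bin to 0.09 in the brightest.

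The spread was larger among the control mice, in part through control replicate 5. Averaged over the 38 genes, the control arrays ranged from 8.23 to 8.56, with a mean of 8.44 ± 0.13, and the carnitine arrays from 8.50 to 8.61, with a mean of 8.55 ± 0.05 (SD, n = 5 per group). Without control replicate 5 the control mean was 8.49 ± 0.07 (SD, n = 4). Control replicate 5 held the lowest value of the 10 arrays, alone or tied, in 24 of the 38 genes, and control replicate 4 in 7. Carnitine replicate 1 held the highest value in 10 and control replicate 3 in 7. These counts were not made over all genes, so they do not show a trait particular to the 38 genes. The SD was larger in control than in carnitine muscle in 34 of 38 genes, or 89.5%, against 75.0% of all genes. Without control replicate 5 it was larger in 26 of 38, or 68.4%, against 60.9% of all genes.

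**Figure D3:**
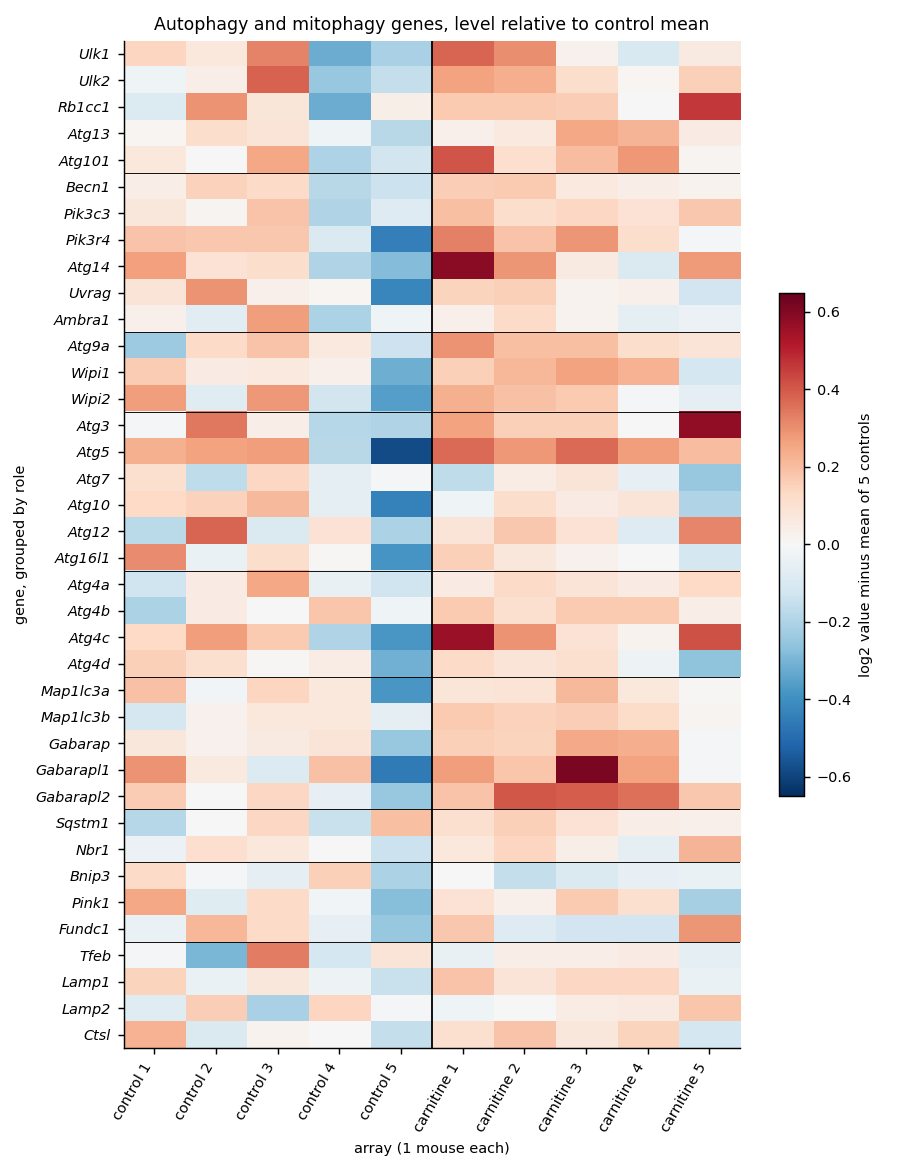
Log2 value of each of the 38 genes on each array minus the mean of the 5 controls, with red above and blue below that mean; lines separate the roles and the vertical line separates control from carnitine. Control replicate 5 is the array with most blue cells, and the row of Gabarapl2 is red in all 5 carnitine mice.

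**Figure D4:**
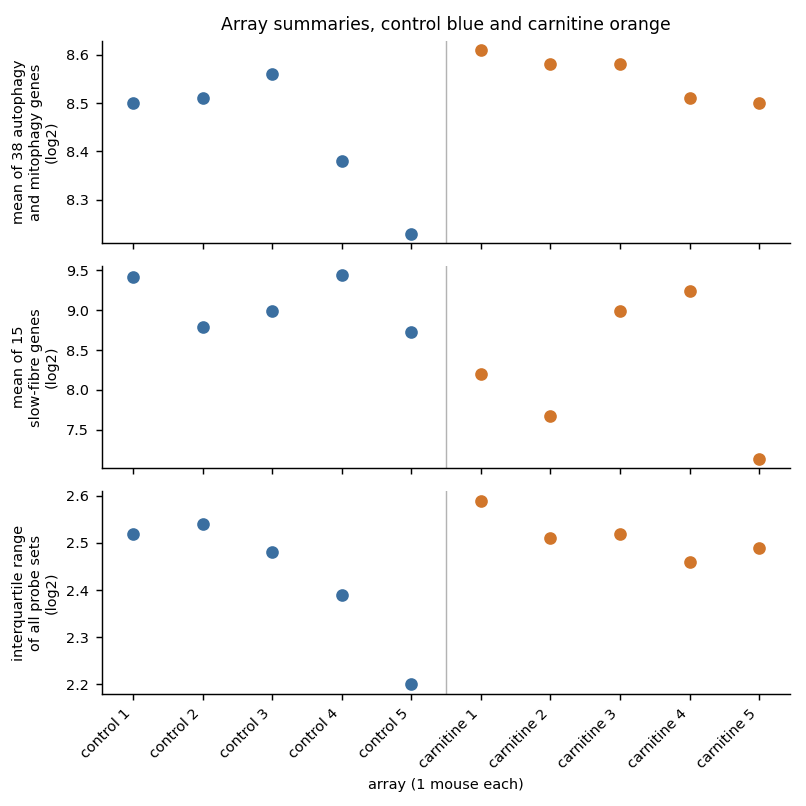
From top to bottom, for each array: the mean log2 value over the 38 autophagy and mitophagy genes, the mean over 15 slow-fibre genes, and the interquartile range of all probe sets, with control in blue and carnitine in orange. Control replicate 5 is lowest in the top panel (8.23) and in the bottom panel (2.20), and carnitine replicate 5 is lowest in the middle panel (7.13).

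The promoters of a few members are shown because TFEB, whose own gene is in the list, is known to drive autophagy and lysosome genes through CLEAR elements, which contain the E-box CACGTG. RefSeq promoters of GRCm38.p6, a reference made from another strain than NMRI, were at hand for 32 of the 38 genes. They run from 250 bases before to 50 after the start site, 300 bases each, 37 promoters in all. The E-box CACGTG, which reads the same on both strands, was found in 7 of these 37 (18.9%), against 7.15% of all 32851 promoters. The longer CLEAR core TCACGTGA, also the same on both strands and containing the E-box, was found in 1 of 37, that of Atg3, against 0.974% of all. The FOXO element GTAAACA, searched on both strands, was found in 0 of 37, against 3.65% of all. A match describes letters, not binding. The 4 promoters below belong to Lamp1, which has 4 E-boxes between 61 and 15 bases before its start site, to Atg3, which has 2 E-boxes, 1 of them inside its CLEAR core, to Atg5, which has 1, and to Gabarapl2, the gene with the smallest p, which has none. They are printed 5′ to 3′ on the gene's strand, with E-boxes and the CLEAR core in capitals.
Lamp1, chr8:13158911-13159210, plus strand: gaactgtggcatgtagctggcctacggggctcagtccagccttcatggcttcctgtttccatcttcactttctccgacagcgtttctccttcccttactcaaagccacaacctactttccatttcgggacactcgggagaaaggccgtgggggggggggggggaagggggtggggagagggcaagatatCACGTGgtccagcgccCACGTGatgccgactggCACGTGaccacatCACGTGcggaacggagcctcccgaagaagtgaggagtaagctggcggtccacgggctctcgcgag
Atg3, chr16:45158579-45158878, plus strand: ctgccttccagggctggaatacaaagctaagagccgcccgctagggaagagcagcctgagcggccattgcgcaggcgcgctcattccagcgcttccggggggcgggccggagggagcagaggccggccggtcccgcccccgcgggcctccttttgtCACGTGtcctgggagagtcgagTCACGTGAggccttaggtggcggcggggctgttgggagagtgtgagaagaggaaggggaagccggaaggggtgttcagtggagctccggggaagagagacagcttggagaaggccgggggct
Atg5, chr10:44268089-44268388, plus strand: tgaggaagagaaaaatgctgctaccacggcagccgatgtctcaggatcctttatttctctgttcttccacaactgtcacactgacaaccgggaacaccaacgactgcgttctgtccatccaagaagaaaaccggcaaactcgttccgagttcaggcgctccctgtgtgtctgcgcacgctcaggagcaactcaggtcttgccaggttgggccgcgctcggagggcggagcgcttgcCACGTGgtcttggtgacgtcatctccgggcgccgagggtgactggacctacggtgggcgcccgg
Gabarapl2, chr8:111940453-111940752, plus strand: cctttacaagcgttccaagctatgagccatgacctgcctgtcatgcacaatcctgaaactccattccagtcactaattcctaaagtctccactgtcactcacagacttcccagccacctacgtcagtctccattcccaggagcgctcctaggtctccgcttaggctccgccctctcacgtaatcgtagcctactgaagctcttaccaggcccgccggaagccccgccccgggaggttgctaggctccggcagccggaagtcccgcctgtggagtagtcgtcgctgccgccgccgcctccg

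The 7 genes with an E-box in this window were Atg3, Atg5, Atg7, Atg14, Bnip3, Ctsl and Lamp1. Their differences were mixed: 0.23, 0.30, -0.07, 0.22, -0.07, 0.08 and 0.10, in that order. Tfeb itself differed by 0.01 (SE 0.11).

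The ULK complex senses nutrient and energy state and starts the autophagosome. All 5 of its genes had a positive difference, from 0.12 to 0.20 with a median of 0.16, also without control replicate 5 (median 0.12) and after cyclic loess (0.05). In this group 0 genes had an unadjusted p below 0.05, against 6.97% of all genes, which says little for so few genes. Ulk1, the kinase, read 9.18, 9.11, 9.36, 8.72 and 8.83 in control replicates 1 to 5 and 9.42, 9.34, 9.07, 8.94 and 9.10 in carnitine replicates 1 to 5. The groups overlapped, and the lowest values were those of control replicates 4 and 5. The difference was 0.13 (SE 0.13, adjusted p = 0.791 in limma). Ulk2, its close relative, averaged 9.84 ± 0.24 and 9.99 ± 0.10 (SD, n = 5 per group), a difference of 0.16. Atg101, which steadies the scaffold protein ATG13, read 7.36, 7.29, 7.54, 7.09 and 7.17 in control and 7.70, 7.40, 7.49, 7.57 and 7.31 in carnitine. Of its carnitine values, 2 lay above every control, and the difference was 0.20 (SE 0.11). Atg13 differed by 0.12 and Rb1cc1, which encodes the scaffold FIP200, by 0.19. Ulk1 and Atg13 each stood at 0.08 without control replicate 5.

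Beclin 1 (Becn1), the lipid kinase VPS34 (Pik3c3) and its partner VPS15 (Pik3r4) form the core that makes the lipid mark PI3P on the membrane. ATG14 directs this core to autophagosome formation, UVRAG to endosomes, and AMBRA1 links it to the ULK complex. All 6 genes had a positive difference, with a median of 0.12, and 3 of 6 after cyclic loess. Of the 6, 0 had an unadjusted p below 0.05, against 6.97% of all genes. Atg14 stood highest in this group at 0.22 (SE 0.14). It read 7.16, 6.99, 7.01, 6.70 and 6.61 in control and 7.48, 7.18, 6.95, 6.80 and 7.17 in carnitine. Carnitine replicates 1, 2 and 5 lay above every control, while carnitine replicate 4 lay below 3 of the 5 controls. Pik3r4 differed by 0.18, and by 0.07 without control replicate 5, whose value of 6.74 was the lowest. Pik3c3 differed by 0.14, Becn1 by 0.09, Uvrag by 0.05 and Ambra1 by 0.02. Without control replicate 5 Becn1 stood at 0.06, Ambra1 at 0.01 and Uvrag, turned in sign, at -0.06, and the signs of Becn1, Uvrag and Ambra1 turned after cyclic loess.

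ATG9A brings lipid vesicles to the growing membrane, and WIPI1 and WIPI2 bind the PI3P mark. Atg9a differed by 0.18 (SE 0.10), with control values of 8.40, 8.76, 8.82, 8.70 and 8.50 and carnitine values of 8.93, 8.83, 8.83, 8.75 and 8.72. In Atg9a 3 of the 5 carnitine mice lay above every control. Wipi1 averaged 8.41 ± 0.18 in control and 8.55 ± 0.15 in carnitine, a difference of 0.15. Control replicate 5 at 8.09 and carnitine replicate 5 at 8.29 lay well below the rest of their groups in Wipi1. The difference in Wipi1 was 0.07 without control replicate 5. Wipi2 differed by 0.11, and by 0.02 without control replicate 5.

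The conjugation machinery attaches ATG8 proteins to lipid. ATG7 activates them, ATG3 passes them on, and the complex of ATG12, ATG5 and ATG16L1 sets the place, with ATG10 joining ATG12 to ATG5. The 6 genes were uneven, with 5 positive on the deposited values and 3 after cyclic loess. Atg5 read 7.63, 7.66, 7.67, 7.22 and 6.82 in control and 7.77, 7.68, 7.77, 7.67 and 7.60 in carnitine, a difference of 0.30 (SE 0.15, 1.23-fold, adjusted p = 0.715 in limma). Control replicates 1 to 3 lay inside the carnitine range, and control replicates 4 and 5 lay below every carnitine mouse. The difference in Atg5 was 0.15 without control replicate 5. Atg3 read 8.40, 8.75, 8.45, 8.22 and 8.21 in control and 8.67, 8.56, 8.56, 8.41 and 8.98 in carnitine, with 1 carnitine mouse, replicate 5, above every control. Its difference was 0.23 (SE 0.12). Atg12 differed by 0.12, Atg16l1 by 0.03, Atg10 by 0.004 and Atg7 by -0.07 (SE 0.10). Without control replicate 5, Atg12 stood at 0.07, Atg10 at -0.11 and Atg16l1 at -0.07.

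ATG4 proteases trim ATG8 proteins before conjugation and later free them from the membrane. The 4 genes had differences of 0.09 (Atg4a), 0.13 (Atg4b), 0.28 (Atg4c) and 0.004 (Atg4d), of which Atg4a (-0.015) and Atg4d (-0.06) turned negative after cyclic loess. Atg4c read 7.20, 7.34, 7.24, 6.87 and 6.69 in control and 7.63, 7.36, 7.16, 7.09 and 7.48 in carnitine. Its groups overlapped, with 3 carnitine mice above every control, and the SE was 0.14. Without control replicate 5 the difference in Atg4c was 0.18, that in Atg4a was 0.06, and that in Atg4d turned to -0.07.

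The ATG8 family, whose proteins coat the autophagosome and bind cargo receptors, held the gene with the smallest p. All 5 genes had a positive difference, with a median of 0.15, on the deposited values, after cyclic loess (median 0.06) and with the slow-fibre mean as a covariate (0.26), while without control replicate 5 Map1lc3a turned to -0.003. Gabarapl2, also called GATE-16, read 7.72, 7.55, 7.69, 7.50 and 7.31 in control replicates 1 to 5. In carnitine replicates 1 to 5 it read 7.74, 7.96, 7.95, 7.91 and 7.73. The groups did not overlap, but the highest control (7.72) and the lowest carnitine mouse (7.73) were almost level. The difference was 0.30 (SE 0.10, 95% interval 0.10 to 0.51, 1.23-fold), with an unadjusted p of 0.00742 in limma and an adjusted p of 0.712. It was 0.24 without control replicate 5 and 0.23 after cyclic loess. Over the main setting and 21 alternatives its unadjusted p was below 0.05 in 22 of 22, and its adjusted p ran from 0.380 to 0.900. These settings draw on the same arrays, and the gene was picked for its small p, so they are not independent checks. Gabarapl2 was the 1 member whose groups did not overlap. Every carnitine array lay above every control in 0.505% of all genes and 1.0% of the 8872 brightest. The separation in Gabarapl2 was lost after median centring and after quantile normalization.

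Gabarapl1, a known target of FOXO factors in muscle, read 8.74, 8.51, 8.36, 8.64 and 7.99 in control and 8.72, 8.63, 9.06, 8.71 and 8.44 in carnitine. Carnitine replicate 3 was the 1 mouse above every control, and control replicate 5 was the lowest of all. The difference was 0.26 (SE 0.14), and 0.15 without control replicate 5. Gabarap read 10.73, 10.68, 10.71, 10.74 and 10.41 in control and 10.81, 10.80, 10.90, 10.89 and 10.64 in carnitine. In Gabarap 4 carnitine mice lay above every control, with carnitine replicate 5 below 4 of the 5 controls, and the difference was 0.15 (SE 0.09), or 0.09 without control replicate 5. A second, dimmer probe set of Gabarap differed by 0.26, in the same direction. On it control replicate 5 read 7.49, with the other controls at 7.85 to 8.23. Map1lc3b, the LC3 gene whose protein is the usual marker of autophagosomes, averaged 11.02 ± 0.08 and 11.14 ± 0.06 (SD, n = 5 per group). The difference was 0.12 (SE 0.07), again with 4 carnitine mice above every control. Map1lc3a differed by 0.09. With the slow-fibre mean as a covariate, Gabarapl1 stood at 0.48, Gabarapl2 at 0.38, Gabarap at 0.26 and Wipi1 at 0.28, and these 4 members had an unadjusted p below 0.05 in limma. In that fit 6.08% of all genes had an unadjusted p below 0.05, and the adjusted p was 0.793 for the 3 ATG8 genes and 0.812 for Wipi1. The slow-fibre mean itself was 9.07 in control and 8.24 in carnitine, so this fit cannot fully separate it from the diet.

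**Figure D5:**
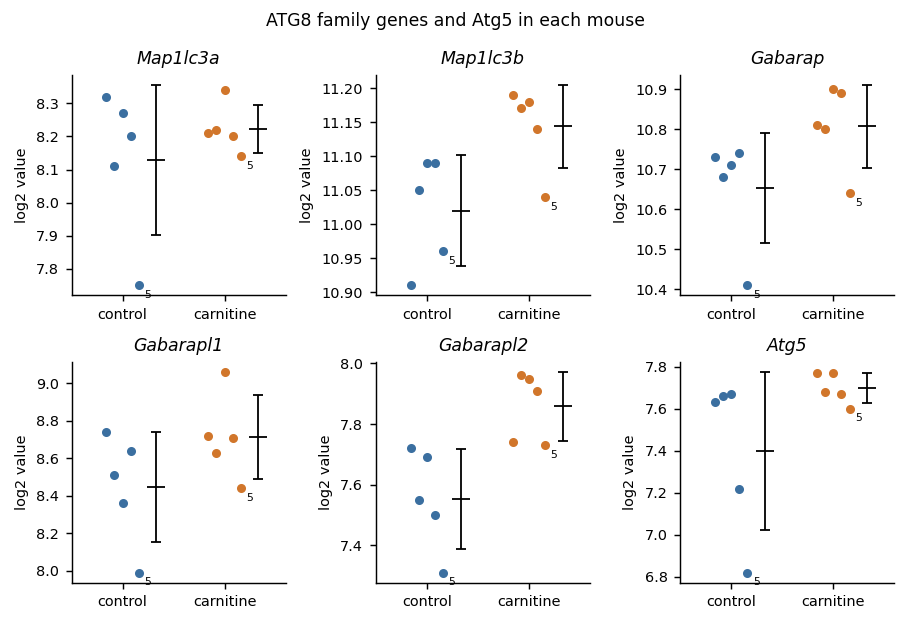
Log2 values of the 5 ATG8 family genes and Atg5 in each mouse, control in blue and carnitine in orange in the order of replicates 1 to 5, with the mean and SD of each group beside the points and replicate 5 marked; each panel has its own axis, which does not start at 0. Gabarapl2 is the panel in which the groups do not overlap, with 7.72 as the highest control and 7.73 as the lowest carnitine value.

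The cargo receptors p62 (Sqstm1) and NBR1 bind ubiquitin on one side and ATG8 proteins on the other. Sqstm1 averaged 11.45 ± 0.17 in control and 11.53 ± 0.05 in carnitine, a difference of 0.09 (SE 0.09). In this gene control replicate 5, at 11.64, was the highest of all 10 arrays, unlike in most other members. Nbr1 differed by 0.08 (SE 0.08). Sqstm1 stood at 0.13 and Nbr1 at 0.05 without control replicate 5, and both signs turned after cyclic loess, to -0.01 and -0.02.

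The mitophagy genes had the lowest median difference of the 9 groups, 0.03. BNIP3 and FUNDC1 are receptors in the outer mitochondrial membrane, and PINK1 is the kinase that marks damaged mitochondria for removal. Bnip3 and Atg7 were the 2 members with a negative difference on the deposited values. Bnip3 read 9.80, 9.66, 9.61, 9.83 and 9.47 in control and 9.67, 9.52, 9.58, 9.62 and 9.63 in carnitine, a difference of -0.07 (SE 0.08). The groups overlapped, with the lowest value in control replicate 5. Without that array Bnip3 stood at -0.12. After cyclic loess it stood at -0.18, with an unadjusted p of 0.0374 and an adjusted p of 0.861 in limma. In that fit 5.77% of all genes had an unadjusted p below 0.05. Pink1 averaged 10.80 ± 0.20 and 10.83 ± 0.15, a difference of 0.04, and Fundc1 differed by 0.03. Pink1 stood at -0.03 and Fundc1 at -0.04 without control replicate 5, so that all 3 were negative, with a median of -0.04.

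On the lysosomal side, LAMP1 and LAMP2 are membrane proteins of the lysosome and cathepsin L (Ctsl) is one of its proteases. Lamp1 read 11.42, 11.23, 11.35, 11.24 and 11.13 in control and 11.46, 11.36, 11.41, 11.41 and 11.23 in carnitine, a difference of 0.10 (SE 0.08). Its groups overlapped, with 1 carnitine mouse above every control. Lamp2 differed by 0.05 and Ctsl by 0.08, and both turned negative after cyclic loess. Lamp1 stood at 0.06, Ctsl at 0.04 and Tfeb at 0.03 without control replicate 5. Tfeb, the transcription factor of the pathway, read 6.69, 6.40, 7.03, 6.58 and 6.78 in control and 6.65, 6.74, 6.74, 6.75 and 6.63 in carnitine. The carnitine mice lay inside the control range, and the interval of the difference ran from -0.23 to 0.24.

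Other genes of the pathway were read from 6 lists with 145 measured genes of 153. By limma 0 of them passed an adjusted p of 0.05, and 7 had an unadjusted p below 0.05, 6 higher (Snap29, Rragc, Rheb, Ncoa4, Atp6v1e1 and Atp6v1d) and 1 lower (Pla2g15). Such a p was found in 6.97% of all genes and 7.12% of the 8872 brightest, so these 7 of 145 are no more than the background. A positive difference was found in 116, with a median of 0.07, against 74.2% of the bright genes with the same median to 2 decimals, in 105 without control replicate 5, and in 74 (51.0%) after cyclic loess. Snap29, a fusion protein of autophagosome and lysosome, had the largest difference of these genes, 0.42 (SE 0.13, adjusted p = 0.712 in limma). It read 7.51, 7.94, 7.82, 7.24 and 7.31 in control and 8.06, 7.97, 7.95, 7.82 and 8.11 in carnitine, with 4 carnitine mice above every control. In the list of other core and fusion genes 22 of 29 were positive, and 13 after cyclic loess, with Vps16 at 0.21, Wdr45b at 0.20 (0.10 without control replicate 5) and Atg16l2 at -0.14.

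Among 25 regulators upstream of autophagy 17 (68.0%) were positive on the deposited values, 13 (52.0%) without control replicate 5 and 9 (36.0%) after cyclic loess. In the same order, 74.2%, 63.5% and 52.0% of the 8872 brightest genes were positive, and 47.7%, 51.1% and 50.7% of all genes. Rragc, a Rag GTPase subunit that brings the kinase complex mTORC1 to the lysosome, read 7.88, 7.98, 7.87, 7.73 and 7.39 in control and 8.12, 8.12, 8.15, 8.05 and 8.06 in carnitine. All 5 carnitine mice lay above every control, as in 0.505% of all genes and 1.0% of the 8872 brightest. The difference in Rragc was 0.33 (SE 0.11, adjusted p = 0.712 in limma). Rheb, which activates mTORC1, differed by 0.25 (SE 0.09), the AMPK subunit Prkaa1 by 0.25 (SE 0.14; 0.14 without control replicate 5) and Tfec, a dim relative of Tfeb, by -0.24 (SE 0.12).

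Of 16 genes of the V-ATPase, the pump that acidifies the lysosome, 14 were positive with a median of 0.14, and 2 had an unadjusted p below 0.05. After cyclic loess 11 of the 16 were positive, with a median of 0.04. For comparison, 74.2% of the bright genes were positive and 7.12% had such a p (6.97% of all genes). The 2 V-ATPase genes with such a p were Atp6v1e1 at 0.22 (SE 0.10) and Atp6v1d at 0.20 (SE 0.09). Without control replicate 5 no gene of this list had an unadjusted p below 0.05, where 5.55% of all genes did. Atp6v1b2 stood at 0.19 (0.12 without control replicate 5) and Atp6v1h at 0.18. Of 41 lysosomal enzyme and membrane genes 34 were positive, and 24 after cyclic loess, with Acp2 at 0.26 (0.13 without control replicate 5), the peptidase Tpp1 at 0.18, Ctsf at 0.17 and the phospholipase Pla2g15 at -0.23 (SE 0.11, adjusted p = 0.712 in limma). Of 22 further genes of mitophagy and mitochondrial dynamics 19 were positive, and 11 after cyclic loess, led by Fkbp8 (0.19, or 0.11 without control replicate 5), Rhot1 (0.18), Mff (0.17) and Fundc2 (0.16). Of 12 further receptors 10 were positive, and 6 after cyclic loess, led by Ncoa4 (0.20, SE 0.09), the receptor for ferritin. The other named receptors were Sec62 (0.17), Rtn3 (0.13) and Stbd1 (0.11).

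Markers of other cells gave these values beside the lists above. Slow-fibre genes were lower in carnitine muscle in 14 of 15. In limma 11 of them had an unadjusted p below 0.05, against 6.97% of all genes, and 0 had an adjusted p below 0.05. The slow myosin Myh7 differed by -1.64 (SE 0.67). The carnitine mice were not alike. The slow-fibre mean was 8.20, 7.67 and 7.13 in carnitine replicates 1, 2 and 5. In carnitine replicates 3 and 4 it was 8.99 and 9.24, inside the control range of 8.73 to 9.44. Myh7 read 10.73 and 10.94 in carnitine replicates 3 and 4, inside its control range of 10.20 to 11.29. Fast-fibre genes were positive in 13 of 15, with a mean of 12.50 to 12.62 in control and 12.61 to 12.67 in carnitine. Macrophage markers, cells rich in lysosomes, were positive in 6 of 11, with means of 6.02 to 6.46 in control and 6.00 to 6.29 in carnitine. All 10 fibroblast markers were positive, with means of 7.43 to 8.18 and 7.76 to 8.34. Endothelial markers were positive in 4 of 9, adipocyte markers in 2 of 7, Schwann cell and nerve markers in 4 of 5, T cell markers in 0 of 8 and neutrophil markers in 1 of 10. All 8 T cell and all 10 neutrophil genes averaged below the median gene. For comparison, 47.7% of all genes and 74.2% of the 8872 brightest were positive. In the bins of 2218 genes with means below 6.59 the share was 24.8% to 42.1%. These marker counts are for all 10 arrays on the deposited values. The part of these cells in the autophagy values was not tested.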

How the data were processed

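Total RNA of gastrocnemius from 10 mice was measured on Affymetrix Mouse Gene 2.0 ST arrays. Per the submitters' processing notes, the authors made the deposited log2 values with RMA in Affymetrix Expression Console; no version or genome build was named in the labels read here. RMA brings arrays to a shared scale, so differences in total RNA cannot be seen. The table holds 34390 probe sets, of which 23521 have 1 gene symbol, 1814 several and 9055 none in the annotation used. Per gene, the probe set with the highest mean was kept, which left 22180 genes. No dim gene was removed. Groups follow the sample titles.

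Carnitine was compared with control in limma 3.58.1 (R 4.3.3; lmFit, eBayes with a mean-variance trend), two-sided, with Benjamini-Hochberg adjustment over all genes. The fit was tested on simulated data. The number of arrays limits the precision. The members and lists were chosen with earlier results of these data known. All 40 members are named where measured, and of each other pathway list up to 4 genes with the smallest unadjusted p. Promoters are RefSeq's, of GRCm38.p6. Alternatives were a replicate block, a dim filter, other variance models, array weights, 3 scalings, other probe set choices, the slow-fibre mean as a covariate, and leaving out each array.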

Additional observations from a re-analysis of the deposited data

Results flagged for a closer look

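In 3 of the 76 groups of 5 values tested, 1 mouse lay far from the rest by Dixon's gap rule, which chance alone meets in about 1 of 20 groups. Wipi1 read 8.09 in control replicate 5, with the next control at 8.44, and 8.29 in carnitine replicate 5, with the next carnitine mouse at 8.56. Gabarap read 10.41 in control replicate 5, with the next control at 10.68.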

How the results depend on the processing

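With 5 arrays a group the median SE of a member was 0.11 log2 units, which equals the median difference between the diets to 2 decimals. Effects of that size are not resolved by these arrays. Of 798 member values under 21 alternatives 59 changed sign, in 17 members, and 21 members never did. Gabarapl2 kept its direction in all 21, which draw on the same arrays.

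The count of members with an unadjusted p below 0.05 in limma was 1 on the deposited values, where 6.97% of all genes had such a p. It was 2 after cyclic loess and 2 after quantile normalization (Gabarapl2 and Bnip3; 5.77% and 5.55% of all genes), and 4 with the slow-fibre covariate (6.08% of all genes), which also gave 16 other pathway genes in place of 7. The replicate number as a block gave 3 (Atg5, Gabarapl1 and Gabarapl2), at an adjusted p of 0.605 for each and with 8.12% of all genes, and changed no adjusted call. Same-numbered control and carnitine arrays had correlations of their deviations from -0.13 to 0.24. Of the 5 carnitine arrays, 0 correlated best with the control array of the same number, so the numbers were not taken to pair the mice. Groups of Gabarapl2 overlapped after median centring and after quantile normalization (0 members apart in each). Positive differences numbered 23 after cyclic loess, 26 after quantile normalization and 30 with array weights. In the same order, 50.7%, 50.7% and 50.8% of all genes were positive, against 47.7% on the deposited values. The causes were not tested.

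Signs turned with array weights in Uvrag (-0.017), Atg10 (-0.051), Atg16l1 (-0.039), Atg4d (-0.036), Pink1 (-0.002) and Fundc1 (-0.041). They turned after cyclic loess in Becn1 (-0.002), Uvrag (-0.042), Ambra1 (-0.079), Atg10 (-0.071), Atg16l1 (-0.030), Atg4a (-0.015), Atg4d (-0.060), Sqstm1 (-0.006), Nbr1 (-0.024), Pink1 (-0.062), Tfeb (-0.001), Lamp2 (-0.054) and Ctsl (-0.019). They turned after quantile normalization in Uvrag (-0.027), Ambra1 (-0.068), Atg10 (-0.059), Atg16l1 (-0.016), Atg4a (-0.002), Atg4d (-0.049), Nbr1 (-0.017), Pink1 (-0.050), Lamp2 (-0.042) and Ctsl (-0.009). With the slow-fibre covariate they turned in Ambra1 (-0.016), Atg7 (0.008), Atg12 (-0.004), Nbr1 (-0.002) and Fundc1 (-0.094).

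Leaving out 1 array at a time gave 0 to 1 genes past an adjusted p of 0.05 over all genes, the 1 without control replicate 2. Members with an unadjusted p below 0.05 numbered 1 to 6, with 6 without control replicate 3, 5 without control replicate 2, 4 without carnitine replicate 4 or 5, 3 without control replicate 1 and 2 without carnitine replicate 3. The share of all genes with such a p moved too, to 8.53% without control replicate 3, 11.5% without control replicate 2, 8.15% without control replicate 1, and 6.66%, 5.83% and 5.22% without carnitine replicates 4, 5 and 3. Members whose groups did not overlap numbered 1 to 3, with 3 without carnitine replicate 5 and 2 without control replicate 3, where 2.19% and 2.44% of all genes were apart in either direction, against 1.11% on all arrays. Other pathway genes with an unadjusted p below 0.05 numbered 3 (without carnitine replicate 3) to 21 (without control replicate 2), with 11 without control replicate 3 or carnitine replicate 5. The member median ran from 0.068 without control replicate 5 to 0.137 without control replicate 3. Signs were not stable in Ambra1 (-0.035 to 0.085), Atg10 (-0.106 to 0.057), Atg16l1 (-0.068 to 0.104), Atg4d (-0.074 to 0.071), Fundc1 (-0.039 to 0.080), Map1lc3a (-0.003 to 0.140), Pink1 (-0.033 to 0.099), Tfeb (-0.068 to 0.090) and Uvrag (-0.060 to 0.120).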
